A study of Mus musculus with 17 samples.

Results

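The change in gene expression of the small-intestinal epithelium between days 14 and 42 of life was measured in mice raised by a C57BL/6 dam (B6 dam). Of the 17 libraries of the study, 6 were used: the 3 titled as B6 dam at day 42 and the 3 titled as B6 dam at day 14, chosen by their titles alone. All mice of the study, the controls included, were Igha -/+ on a C57BL/6 background, from crosses of C57BL/6 with IgA-/- animals, and carried 1 working copy of the gene for the IgA heavy chain. Mice of both dams were kept under specific pathogen free conditions. The cells were EpCAM+ CD45- Ter119- small-intestinal cells, flash frozen after sorting. Igha -/+ mice of the same ages nursed by an IgA -/- dam (IgA-null dam) gave 3 libraries at day 42 and 3 at day 14. The labels do not say which mice shared a litter, whether animals were pooled, or which segment of the small intestine was taken, so the p-values describe spread among these libraries, which may be technical.

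At the earlier age mice still suckle, and at the later one they live on solid food. The suckling gut digests much of its milk protein inside the cell: absorptive cells take up macromolecules by endocytosis and break them down in large lysosomes, and the same cells make ketone bodies from milk fat and express enzymes of glucose synthesis. At weaning, in mice, this suckling program is replaced by that of the adult brush border, microbial numbers grow and maternal milk IgA is withdrawn.

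Expression is given as scaled TPM, the deposited TPM (transcript abundance as a share of the library) of a gene divided by a median-of-ratios factor of its library, and a change as the difference of the mean log2(scaled TPM + 1), day 42 minus day 14. This scale understates the change of low genes. A gene was called where limma gave a Benjamini-Hochberg adjusted p under 0.05. TPM multiplied by exon length came back as whole reads for most values. The reads in these values, a part of the depth, were 15292475 to 17544428 per library at day 42 and 11310851 to 13636442 at day 14. The gene model Gm23935 alone took 45.7% to 59.7% of all TPM, and the mitochondrial ribosomal RNAs 20.4% to 31.9%. Size factors ran from 0.735 to 1.14.

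A single library of each age stood apart. Day 42 replicate 1 held more RNA of absorptive and Paneth cell genes than its 2 partners, and day 14 replicate 3 held less RNA of suckling genes than its partners. The summed level of the fat absorption genes was 5450, 641 and 1390 at day 42, against 8650, 10200 and 3490 at day 14. Each library still resembled its own age most, with a mean correlation of 0.938 to 0.969 with its own group and a highest correlation of 0.917 with any library of the other age. In these sorted but bulk samples, fewer cells of a type and less RNA per cell cannot be told apart. The descriptions carry strings that read like dates, which differ between the ages, so age and that string cannot be told apart. RNA was extracted after all groups had been collected.

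Epithelial markers were high in every library. Epcam, on whose protein the cells were sorted, ran at 392 to 531 scaled TPM. Ptprc, which encodes the CD45 that the sort excluded, reached 0.513 at most, and Igha reached 0.93. None of the 8 pan-epithelial genes was called (median change 0.28). Their summed scaled TPM was nevertheless higher at day 42, with 2860, 2300 and 2230, against 2010, 1800 and 2020 at day 14. With the IgA-null dam 4 of the 8 were called higher.

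Of 12905 genes tested, 808 rose (6.26%) and 774 fell (6.00%) at day 42 relative to day 14. Of these 1582 genes, 639 changed at least 2-fold on this scale, 320 of them higher and 319 lower. The median change of all tested genes was -0.02. In every called gene the 3 libraries of one age lay wholly above the 3 of the other, which was so for 36.3% of all tested genes. Where a called gene is described below as not overlapping between ages, this thus adds nothing to its call. With TPM as deposited, where the median of all genes was -0.18, 406 genes rose and 831 fell, so that 32.8% of calls were higher in place of 51.1%. The number called was 744 without day 42 replicate 3, 906 without day 42 replicate 2, 586 without day 14 replicate 1, 780 without day 14 replicate 2 and 2448 without both libraries that stood apart. Where libraries joined by "or" are given as left out, each was left out alone. Settings in which a count moved by more than 1.5 times are named for many lists, but not for all. A count given without such a setting is thus not shown to be stable.

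**Figure D1:**
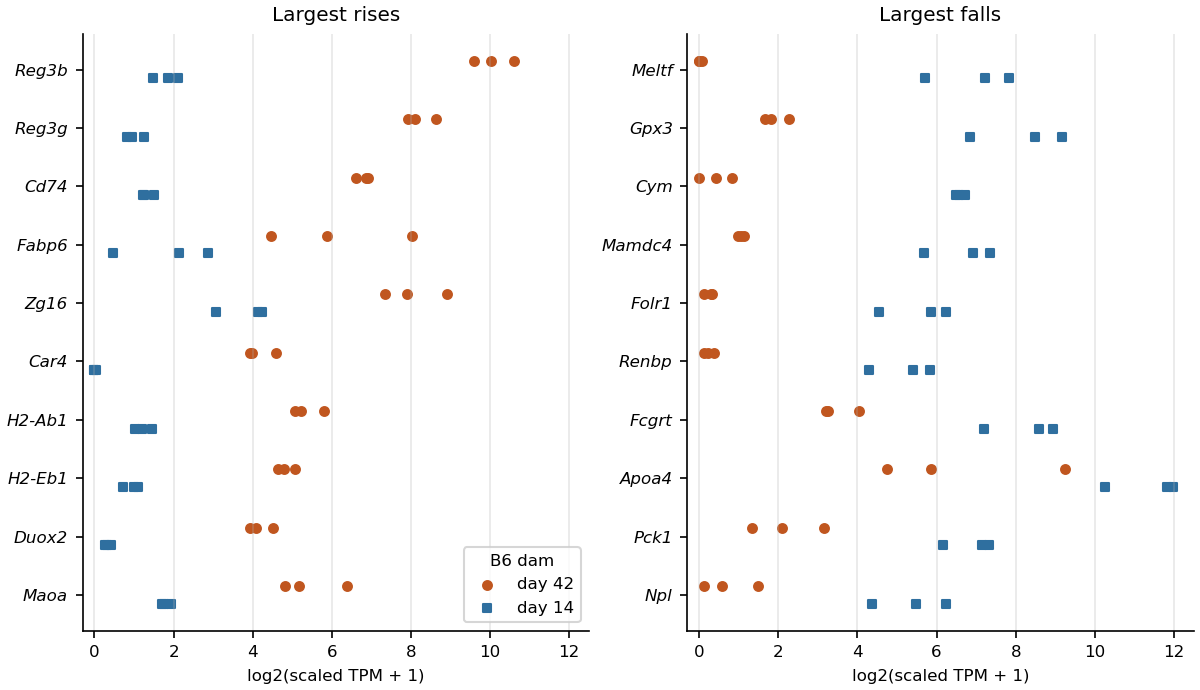
Level of the 10 largest rises and 10 largest falls, among called genes with a mean of at least 10 scaled TPM and predicted genes left out, in each B6 dam library, as log2(scaled TPM + 1); circles are the 3 libraries at day 42 and squares, drawn just below them, the 3 at day 14. Reg3b leads the rises at 775 to 1544 scaled TPM at day 42 and 1.81 to 3.33 at day 14, and Meltf leads the falls. That the ages do not overlap was a condition for choosing these 20 genes.

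Receptors and adaptors that take up milk protein fell at day 42. Fcgrt, the neonatal Fc receptor that carries milk IgG, had 15.4, 8.50 and 8.17 scaled TPM at day 42, against 386, 493 and 146 at day 14 (log2 change -4.76, SE 0.48, adjusted p = 0.0028; chr7:45092990-45103851, GRCm38). Mamdc4, an endocytic glycoprotein of the suckling apical endosome, had 1.17, 0.965 and 1.06 scaled TPM at day 42, against 119.5, 162 and 49.9 at day 14 (log2 change -5.60, SE 0.40, adjusted p = 0.001). Dab2, the clathrin adaptor of apical endocytosis, had 0.0241, 0.00725 and 0.00639 scaled TPM at day 42, against 15.1, 22.3 and 5.75 at day 14 (log2 change -3.75, SE 0.42, adjusted p = 0.0041). All 3 genes were lowest in day 14 replicate 3 among the day 14 libraries, and that library still lay above every day 42 library. Of 10 tested members of the milk uptake list, 4 fell, 1 rose (Arrb1, a receptor adaptor, 0.84) and 5 were not called. The list's median change was -1.16, and the megalin partners Cubn and Amn were among those not called.

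Lysosomal genes fell with them: 13 of 40 tested members were lower at day 42 and 1 was higher, with a median change of -0.68 (all genes -0.02). Ctsl, a cysteine protease that degrades protein in lysosomes, had 1.30, 1.18 and 1.46 scaled TPM at day 42, against 57.6, 90.3 and 17.4 at day 14 (log2 change -4.32, SE 0.55, adjusted p = 0.0061). Lgmn, an asparaginyl endopeptidase that also processes cathepsins, had 5.29, 3.92 and 5.31 scaled TPM at day 42, against 119, 210.2 and 39.4 at day 14 (log2 change -4.12, SE 0.56, adjusted p = 0.0073; chr12:102394084-102439813). Ages did not overlap in either of them, as in every called gene, and day 14 replicate 3 was again the lowest library of its age. Their calls, and that of Mcoln3, an ion channel of endosomes and lysosomes (-4.03), held with each library left out in turn. The exception among lysosomal genes was Ctsc, a dipeptidyl peptidase, which had 6.05, 5.08 and 5.24 scaled TPM at day 42, against 2.64, 2.95 and 2.66 at day 14 (log2 change 0.78, SE 0.09, adjusted p = 0.0053; 0.063 with TPM as deposited). How many lysosomal genes were called lower depended on the libraries used: 6 without day 42 replicate 2 or day 14 replicate 2, 5 without day 42 replicate 3, 4 without day 14 replicate 1, 25 without day 14 replicate 3, 28 without both libraries that stood apart and 20 with TPM as deposited.

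Promoter windows of 2 of the lysosomal genes that fell are printed here because they share an E-box. GTCACGTG, the core of the element bound by the lysosomal regulator TFEB and its relatives, was searched on both strands of the RefSeq windows of GRCm38.p6, from 250 bases before to 50 bases after each start. It occurred in the windows of 9 of 34 lysosomal genes with a window (26.5%), of 3 of the 11 called lower (Ctsa, Glb1 and Lgmn), and of 689 of all 27025 genes (2.55%). The letters were chosen after these windows were seen, and a match is a description of the sequence. The match is in capitals and begins at -51 from a RefSeq start of Lgmn and at -50 from one of Glb1, the gene of lysosomal beta-galactosidase. For each gene the first window that held a match was taken. The Lgmn window lies wholly within the gene's span given above, so its start is not the outermost start of the gene. Glb1, chosen for its match after its values were seen, had 4.30, 4.71 and 4.91 scaled TPM at day 42, against 21.2, 29.4 and 11.7 at day 14 (log2 change -1.86, adjusted p = 0.013). The windows are chr12:102439043-102439342, minus strand, and chr9:114400828-114401127, plus strand.
Lgmn: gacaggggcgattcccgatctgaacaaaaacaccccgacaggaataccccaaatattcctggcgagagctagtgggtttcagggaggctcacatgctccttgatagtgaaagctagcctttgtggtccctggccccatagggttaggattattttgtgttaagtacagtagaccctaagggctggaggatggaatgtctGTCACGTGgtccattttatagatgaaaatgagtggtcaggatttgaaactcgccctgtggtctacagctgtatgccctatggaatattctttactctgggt
Glb1: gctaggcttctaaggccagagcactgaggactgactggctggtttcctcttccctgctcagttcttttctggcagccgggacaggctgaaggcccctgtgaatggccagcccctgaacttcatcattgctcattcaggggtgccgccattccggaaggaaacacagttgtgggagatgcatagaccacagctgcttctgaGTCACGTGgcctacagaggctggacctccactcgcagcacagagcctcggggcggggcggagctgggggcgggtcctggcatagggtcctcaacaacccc

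Among all ranked falls the largest was that of Meltf, a membrane-bound iron-binding relative of transferrin, with 0.0429, 0 and 0 scaled TPM at day 42, against 148, 226 and 51.5 at day 14 (log2 change -6.90, SE 0.50, adjusted p = 0.001; chr16:31878810-31899020). Gpx3, a secreted glutathione peroxidase, had 2.15, 2.49 and 3.85 scaled TPM at day 42, against 361, 574 and 113 at day 14 (log2 change -6.25, SE 0.57, adjusted p = 0.0021). Cym, the milk-clotting protease chymosin, had 0.764, 0 and 0.341 scaled TPM at day 42, against 104, 94.4 and 88.7 at day 14 (log2 change -6.18, SE 0.21, adjusted p = 9.1e-05). Cym was nearly equal in its 3 day 14 libraries, whereas Meltf and Gpx3 were lowest in day 14 replicate 3. Folr1, a folate receptor, had 0.257, 0.0927 and 0.225 scaled TPM at day 42, against 56.8, 74.7 and 22.2 at day 14 (log2 change -5.29, SE 0.41, adjusted p = 0.0014). Renbp, an epimerase of N-acetylglucosamine, had 0.0947, 0.171 and 0.301 scaled TPM at day 42, against 41.05, 56.4 and 18.6 at day 14 (log2 change -4.93, SE 0.37, adjusted p = 0.0012). These 5 calls held with each library left out.

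Iron and calcium transport genes other than Meltf fell too, 4 of 11 in all, with a list median of -0.98. S100g, the calcium-binding calbindin of enterocytes, had 49.5, 28.8 and 24.33 scaled TPM at day 42, against 348, 305 and 271 at day 14 (log2 change -3.19, SE 0.27, adjusted p = 0.0017). Slc40a1, the iron exporter ferroportin, had 1.63, 1.25 and 1.17 scaled TPM at day 42, against 15.8, 23.8 and 8.47 at day 14 (log2 change -2.75, SE 0.33, adjusted p = 0.0052). Slc11a2, the iron importer DMT1, had 3.38, 2.48 and 1.96 scaled TPM at day 42, against 10.6, 14.41 and 5.57 at day 14 (log2 change -1.57, adjusted p = 0.026), and its call was lost without day 42 replicate 2 or 3 or day 14 replicate 1 or 2 (adjusted p = 0.065 to 0.099). The member that rose was Vdr, the vitamin D receptor, with 41.95, 39.04 and 34.4 scaled TPM at day 42, against 17.2, 15.5 and 23.9 at day 14 (log2 change 1.01, adjusted p = 0.016). That call was lost without day 42 replicate 2 or day 14 replicate 1 (adjusted p = 0.054 to 0.073). The count lower was 8 without both libraries that stood apart.

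Of 7 gluconeogenic genes 4 fell at day 42 (median -0.91). Pck1, the enzyme that commits carbon to gluconeogenesis, had 7.94, 1.54 and 3.28 scaled TPM at day 42, against 139.8, 158 and 70.98 at day 14 (log2 change -4.67, SE 0.51, adjusted p = 0.0036). Fbp1, fructose bisphosphatase, had 4.82, 4.28 and 4.33 scaled TPM at day 42, against 61.4, 74.9 and 30.8 at day 14 (log2 change -3.28, SE 0.31, adjusted p = 0.0024). The others were G6pc and Slc37a4, the phosphatase and transporter that release glucose. That count was 2 without day 42 replicate 2 or 3 or day 14 replicate 1 or 2.

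Of 20 genes of ketogenesis and fatty acid oxidation, 9 fell and none rose (median -0.51). Acaa2, a thiolase of fatty acid oxidation, had 38.1 to 46.5 scaled TPM at day 42 and 128 to 167 at day 14 (log2 change -1.87, adjusted p = 0.0015). Acat1, a thiolase of ketone metabolism, had 20.1 to 24.09 scaled TPM at day 42 and 54.3 to 67.6 at day 14 (log2 change -1.49, adjusted p = 0.0019). Both held with each library left out, and the list's count was 5 without day 42 replicate 2 or 3 or day 14 replicate 2, 4 without day 14 replicate 1 and 16 without both libraries that stood apart. Pdk4, a kinase that spares glucose by blocking pyruvate entry into the citrate cycle, had 1.40, 0.470 and 1.02 scaled TPM at day 42, against 5.39, 4.58 and 3.73 at day 14 (log2 change -1.52, SE 0.21, adjusted p = 0.0072). With Per1, Dusp1 and Errfi1, 4 of 11 glucocorticoid target genes fell and none rose (median -0.63), and the count was 2 without day 42 replicate 2 or 3 or day 14 replicate 2 or 3 and 1 without day 14 replicate 1. Dusp1 lost its call whichever library was left out (adjusted p = 0.055 to 0.11). Errfi1 lost it without day 42 replicate 2 or 3 or day 14 replicate 1, 2 or 3 (adjusted p = 0.062 to 0.11). Per1 lost it without day 14 replicate 1 (adjusted p = 0.052).

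Of 12 genes of arginine metabolism and the urea cycle 6 fell (Ass1, Asl, Oat, Aldh18a1, Cps1 and Slc25a15) and 1 rose (median -0.57). Ass1, argininosuccinate synthase, had 1.22, 1.74 and 1.59 scaled TPM at day 42, against 27.4, 37.2 and 11.8 at day 14 (log2 change -3.26, SE 0.38, adjusted p = 0.0049). Oat, which makes the citrulline precursor ornithine, had 241, 202 and 185 scaled TPM at day 42, against 514, 491 and 455 at day 14 (log2 change -1.22, SE 0.14, adjusted p = 0.0049). Aldh18a1, which starts proline and ornithine synthesis from glutamate, had 38.4, 34.8 and 33.8 scaled TPM at day 42, against 84.2, 80.7 and 67.6 at day 14 (log2 change -1.09, SE 0.12, adjusted p = 0.0041). Oat and Aldh18a1 were tight within each age, and Ass1 was lowest of its age in day 14 replicate 3. Arg2, a mitochondrial arginase that breaks arginine down, moved the other way, with 56.9, 20.4 and 24.07 scaled TPM at day 42, against 2.13, 1.64 and 3.20 at day 14 (log2 change 3.27, SE 0.39, adjusted p = 0.005). The count lower was 3 without day 42 replicate 3 or day 14 replicate 1.

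Fat absorption genes were mostly not called, and the 3 libraries at day 42 spread widely. Apoa4, an apolipoprotein of chylomicrons, had 607, 26.0 and 56.8 scaled TPM at day 42, against 3605, 4009 and 1217 at day 14 (log2 change -4.73, SE 1.15, adjusted p = 0.046). The highest day 42 library was replicate 1, and the call was lost without day 42 replicate 2 or 3 or day 14 replicate 1, 2 or 3 (adjusted p = 0.064 to 0.14). Dgat2, which makes triglyceride, had 8.64, 2.36 and 2.49 scaled TPM at day 42, against 75.5, 98.4 and 30.7 at day 14 (log2 change -3.69, SE 0.56, adjusted p = 0.01). Plin2, a lipid droplet coat protein, had 8.59, 6.999 and 8.05 scaled TPM at day 42, against 31.9, 37.5 and 19.9 at day 14 (log2 change -1.75, SE 0.23, adjusted p = 0.0068). Both, like every called gene, were separated by age in all 6 libraries, and both held with each library left out. Of 21 tested genes, 3 fell (median -0.81), and the number was 11 without day 42 replicate 1, 17 without both libraries that stood apart and 8 with TPM as deposited.

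Regulators of the fetal and suckling gut fell in 9 of 14 tested cases and rose in 1, with a median of -0.75. Prdm1, which encodes the repressor Blimp1 that holds back the adult program before weaning in mice, had 0.476, 0.153 and 0.143 scaled TPM at day 42, against 8.76, 10.8 and 5.07 at day 14 (log2 change -2.83, SE 0.26, adjusted p = 0.0021; chr10:44437177-44528501). Gpc3, a fetal heparan sulfate proteoglycan, had 0.132, 0.554 and 0.262 scaled TPM at day 42, against 21.5, 24.8 and 18.1 at day 14 (log2 change -4.10, SE 0.16, adjusted p = 0.00011). Igf2bp3, an oncofetal RNA-binding protein, had 0.203, 0.443 and 0.253 scaled TPM at day 42, against 7.31, 7.86 and 7.34 at day 14 (log2 change -2.71, SE 0.10, adjusted p = 0.00011). Arid3a, a DNA-binding protein of the ARID family, had 1.09, 1.20 and 1.02 scaled TPM at day 42, against 11.6, 13.2 and 8.35 at day 14 (log2 change -2.50, SE 0.16, adjusted p = 0.00072). The ages were separated by a wide gap in all 4 genes, and all 4 calls held with each library left out. The member that rose was Nr3c2, the mineralocorticoid receptor, with 7.23, 3.92 and 4.21 scaled TPM at day 42, against 1.83, 1.62 and 1.97 at day 14 (log2 change 1.09, adjusted p = 0.02), a call lost without day 14 replicate 1 or 2 (adjusted p = 0.07 to 0.077). The count of members lower was 5 without day 42 replicate 3 or day 14 replicate 1.

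Among 25 intestinal transcription factors 4 rose and 3 fell (median -0.10). Ppard, a fatty acid-sensing nuclear receptor, had 21.4, 15.5 and 15.1 scaled TPM at day 42, against 5.53, 5.27 and 7.88 at day 14 (log2 change 1.35, SE 0.19, adjusted p = 0.0081). Klf4, Tcf7l2 and Vdr were the others that rose, and Gata6 and Nr5a2, among those that fell, fell by less than 1 on the log2 scale. Apart from Ppard, each of these calls was lost without at least 1 library. The count of rises was 1 without day 14 replicate 1 and 2 without day 14 replicate 2. The count of falls was 1 without day 42 replicate 2 or day 14 replicate 2, 0 without day 42 replicate 3 or day 14 replicate 1 and 1 with TPM as deposited.

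Of 11 genes of sugar digestion and uptake 2 rose and none fell (median 0.44), while the trehalase Treh, another brush border disaccharidase, was not called. Sis, the sucrase-isomaltase of the adult brush border, had 188, 29.6 and 32.4 scaled TPM at day 42, against 5.48, 2.80 and 4.07 at day 14 (log2 change 3.53, SE 0.70, adjusted p = 0.024). Mgam, maltase-glucoamylase, had 175, 70.6 and 73.1 scaled TPM at day 42, against 33.6, 33.2 and 34.2 at day 14 (log2 change 1.496, adjusted p = 0.039). Day 42 replicate 1 was far above its partners for both. The call of Sis was lost without day 14 replicate 1, 2 or 3 (adjusted p = 0.06 to 0.082), and that of Mgam without day 42 replicate 2 or 3 or day 14 replicate 1, 2 or 3 (adjusted p = 0.05 to 0.12). Lct, lactase, had 103, 4.91 and 7.49 scaled TPM at day 42, against 152, 163 and 66.9 at day 14 and was not called (log2 change -2.79, adjusted p = 0.14). Day 42 replicate 1 lay within the day 14 range. The number of sugar genes higher was 1 without day 42 replicate 2 or 3 and 0 without day 14 replicate 1, 2 or 3. The number lower was 2 without day 42 replicate 1, 5 without both libraries that stood apart and 1 with TPM as deposited.

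Other absorptive genes rose as well. Car4, a membrane carbonic anhydrase, had 22.98, 14.23 and 14.9 scaled TPM at day 42, against 0, 0 and 0.0318 at day 14 (log2 change 4.15, SE 0.18, adjusted p = 0.00015; chr11:84957786-84966044). Maoa, which deaminates serotonin and other amines, had 82.6, 27.2 and 35.3 scaled TPM at day 42, against 2.24, 2.37 and 2.84 at day 14 (log2 change 3.67, SE 0.38, adjusted p = 0.0033). Upp1, a uridine phosphorylase, had 20.99, 7.95 and 10.98 scaled TPM at day 42, against 0.198, 0.412 and 0.511 at day 14 (log2 change 3.28, SE 0.32, adjusted p = 0.0025). Car4 was at or near 0 in every day 14 library, and all 3 held with each library left out. Fabp6, the ileal bile acid binding protein, had 262, 57.5 and 20.9 scaled TPM at day 42, against 6.36, 3.37 and 0.392 at day 14 (log2 change 4.29, SE 0.99, adjusted p = 0.039), and its call was lost without day 42 replicate 2 or day 14 replicate 1, 2 or 3 (adjusted p = 0.077 to 0.098), and on recovered reads (0.16). Fgf15, the ileal hormone that signals bile acid return to the liver, went the other way, with 0.386, 0 and 0.184 scaled TPM at day 42, against 9.05, 8.43 and 3.24 at day 14 (log2 change -2.64, SE 0.34, adjusted p = 0.0065). With them, 2 of 8 bile acid genes rose (Fabp6, Abcc3) and 2 fell (Fgf15, Nr0b2), with a median of -0.76. The call of Abcc3 was lost without day 42 replicate 1, 2 or 3 or day 14 replicate 1 or 2 (adjusted p = 0.068 to 0.11) and that of Nr0b2 without day 14 replicate 1 (adjusted p = 0.052). The number of bile acid genes lower was 1 without day 14 replicate 1, 6 without both libraries that stood apart and 4 with TPM as deposited. Fabp6 and Fgf15 both mark the ileum. Of the segment lists, 3 of 13 distal genes rose and 1 fell (median -0.05), and 2 of 18 proximal genes rose and 3 fell (median -0.61). Among all tested genes 6.26% rose and 6.00% fell. The number of distal genes higher was 1 without day 42 replicate 2 or day 14 replicate 2 or 3 and 0 without day 14 replicate 1. The number of distal genes lower was 3 without day 42 replicate 1 or day 14 replicate 3, 6 without both libraries that stood apart and 4 with TPM as deposited. For proximal genes the number higher was 0 without day 42 replicate 2 or 3 or day 14 replicate 1 or 2, 1 without day 14 replicate 3 and 1 with TPM as deposited. The number of proximal genes lower was 6 without day 42 replicate 1, 7 without both libraries that stood apart and 6 with TPM as deposited. Their part in these results was not tested.

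Of 16 cytochrome P450 genes 3 rose and none fell (median 0.69), namely Cyp4f14, Cyp4b1 (log2 change 1.75) and the sterol demethylase Cyp51 (0.90). Cyp4f14, an omega-hydroxylase of fatty acids and leukotrienes, had 108, 18.3 and 20.5 scaled TPM at day 42, against 4.50, 2.49 and 3.59 at day 14 (log2 change 3.00, adjusted p = 0.032). The call of Cyp4f14 was lost without day 42 replicate 3 or day 14 replicate 1, 2 or 3 (adjusted p = 0.058 to 0.1), and the others held. The number of P450 genes higher was 5 without day 42 replicate 1 and 5 without both libraries that stood apart, and the number lower was 4 without day 42 replicate 1, 5 without both libraries that stood apart and 1 with TPM as deposited. Of 26 conjugation genes 4 rose and 1 fell (median 0.28). The shares over all tested genes, to set beside each list of this paragraph, were 6.26% higher and 6.00% lower. The one that fell was Mgst1, a microsomal glutathione transferase (log2 change -0.62), and its call was lost without day 42 replicate 2 or 3 or day 14 replicate 1, 2 or 3 (adjusted p = 0.054 to 0.098). The number lower was 4 without day 42 replicate 1, 0 without day 42 replicate 2 or 3 or day 14 replicate 1, 2 or 3 and 8 without both libraries that stood apart. The carboxylesterase Ces1f had 10.7, 5.18 and 3.78 scaled TPM at day 42, against 0.473, 0.443 and 0.858 at day 14 (log2 change 2.15, SE 0.32, adjusted p = 0.01). Among 10 genes of purine breakdown (median 0.08), Ada, adenosine deaminase, rose (log2 change 2.33, adjusted p = 0.013), and Adk, adenosine kinase, fell (log2 change -0.57, adjusted p = 0.022). Of 7 retinoid genes (median -0.22) Bco1, which cleaves beta-carotene, rose (log2 change 0.84, adjusted p = 0.019) and none fell, and the number lower was 1 without day 42 replicate 2 or day 14 replicate 3, 2 without both libraries that stood apart and 2 with TPM as deposited. Of 4 phosphatase and sphingomyelinase genes (median 0.19) the alkaline phosphatase Akp3 rose (log2 change 2.31, adjusted p = 0.036). The call of Ada was lost without day 14 replicate 1 or 2 (adjusted p = 0.052 to 0.056), that of Adk without day 42 replicate 2 or 3 or day 14 replicate 1 or 2 (adjusted p = 0.056 to 0.082) and that of Bco1 without day 42 replicate 3 or day 14 replicate 1 (adjusted p = 0.07 to 0.071). That of Akp3 was lost without day 42 replicate 2 or 3 or day 14 replicate 1, 2 or 3 (adjusted p = 0.05 to 0.12). None of the 19 peptide digestion genes was called (median 0.14), and the number lower was 4 without day 42 replicate 1, 11 without both libraries that stood apart and 1 with TPM as deposited.

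**Figure D2:**
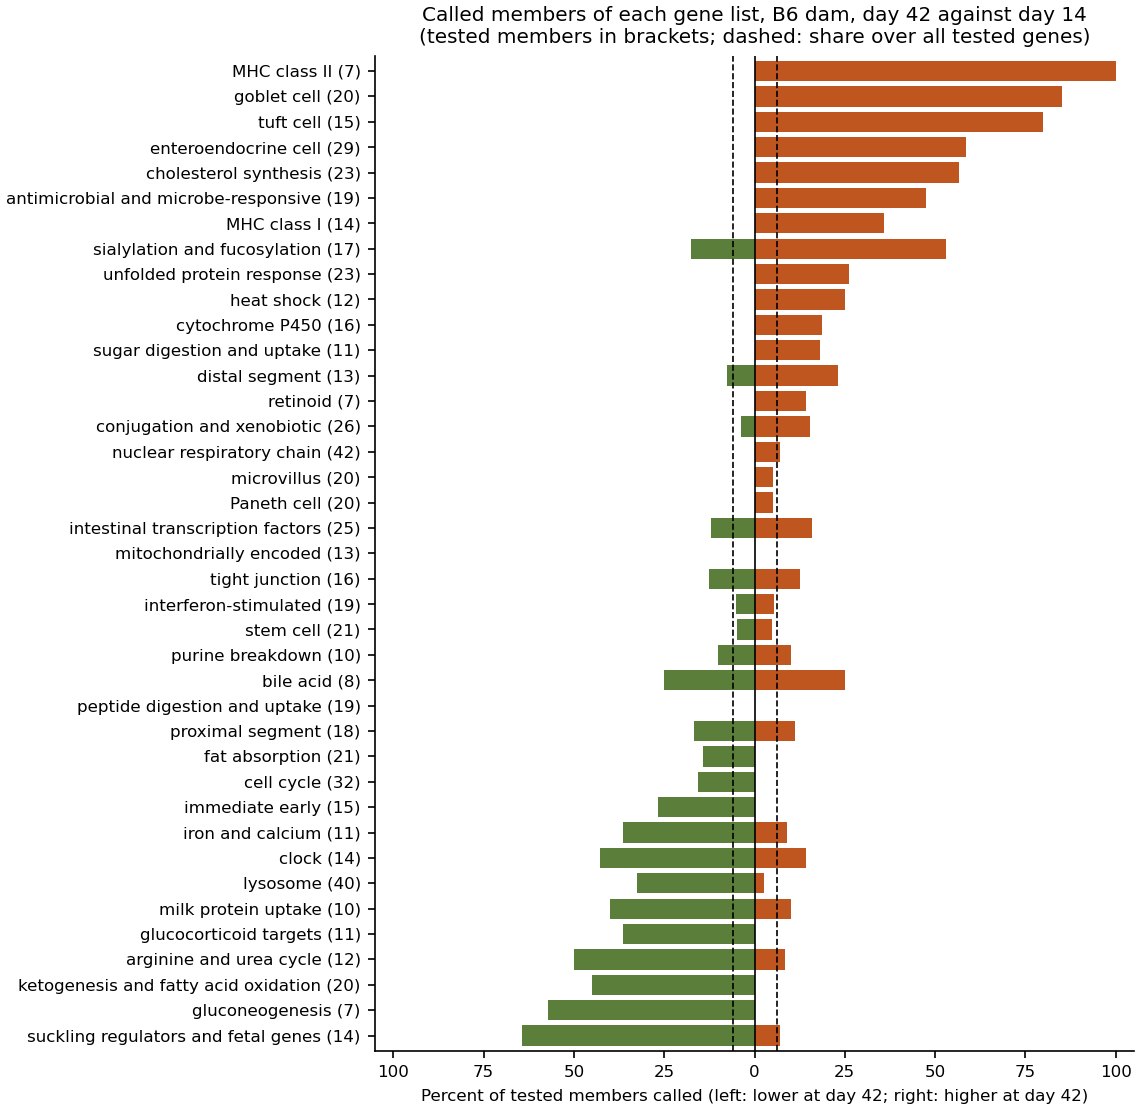
Share of the tested members called at day 42 against day 14 with the B6 dam, for each gene list with at least 7 tested members other than the pan-epithelial list and the markers of other cell types; bars to the right are members higher at day 42, bars to the left members lower, and dashed lines give the shares over all tested genes (6.26% and 6.00%). MHC class II, goblet, tuft and enteroendocrine lists have the highest shares of rises among those plotted, and fetal, gluconeogenic, arginine and ketogenic lists the highest shares of falls.

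The largest rises of all were those of the Reg3 lectins. Reg3b had 1544, 775 and 1038 scaled TPM at day 42, against 2.61, 3.33 and 1.81 at day 14 (log2 change 8.25, SE 0.28, adjusted p = 9.1e-05; chr6:78370657-78373466). Reg3g, a close relative that kills Gram-positive bacteria, had 394, 242 and 273 scaled TPM at day 42, against 1.38, 0.764 and 0.918 at day 14 (log2 change 7.21, SE 0.21, adjusted p = 5.6e-05). Every day 42 library lay far above every day 14 library for both. How reads were assigned between these paralogs was not tested, so the split between them is uncertain. Their promoters are printed because both genes moved together: the capitals mark the longest run of letters the windows have in common, 29 bases that begin at -20 from the RefSeq start in each (GRCm38.p6). The windows are chr6:78370635-78370934, plus strand, and chr6:78468825-78469124, minus strand.
Reg3b: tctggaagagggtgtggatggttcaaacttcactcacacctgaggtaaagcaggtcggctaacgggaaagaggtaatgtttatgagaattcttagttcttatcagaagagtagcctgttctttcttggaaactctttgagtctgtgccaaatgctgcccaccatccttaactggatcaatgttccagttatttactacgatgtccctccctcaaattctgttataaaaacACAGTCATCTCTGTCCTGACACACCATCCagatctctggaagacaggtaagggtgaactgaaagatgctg
Reg3g: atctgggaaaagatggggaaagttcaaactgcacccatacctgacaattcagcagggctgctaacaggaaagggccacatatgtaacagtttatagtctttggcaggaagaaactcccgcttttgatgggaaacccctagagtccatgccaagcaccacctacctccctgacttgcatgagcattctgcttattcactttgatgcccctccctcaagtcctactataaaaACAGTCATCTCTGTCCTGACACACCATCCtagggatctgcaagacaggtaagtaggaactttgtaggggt

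Of 19 tested antimicrobial and microbe-responsive genes, 9 rose and none fell, with a median of 1.54. Duox2, an epithelial oxidase that releases hydrogen peroxide at the lumen, had 21.8, 15.9 and 14.26 scaled TPM at day 42, against 0.253, 0.202 and 0.332 at day 14 (log2 change 3.84, SE 0.16, adjusted p = 0.00013). Nos2, the inducible nitric oxide synthase, had 9.97, 5.61 and 4.21 scaled TPM at day 42, against 0.0294, 0.0549 and 0.0993 at day 14 (log2 change 2.77, SE 0.27, adjusted p = 0.0024). Pigr, the receptor that carries IgA into the lumen, had 769, 618 and 591 scaled TPM at day 42, against 193, 145 and 249 at day 14 (log2 change 1.77, SE 0.23, adjusted p = 0.0062). Igha itself was at 0 to 0.93 in the 6 libraries. All 5 named genes of the list kept their calls with each library left out, and between 8 and 10 members were called higher in those fits.

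Class II antigen presentation genes rose: all 7 tested members of the MHC class II list rose, with a median of 3.09. Cd74, the invariant chain, had 119, 116 and 96.3 scaled TPM at day 42, against 1.33, 1.83 and 1.38 at day 14 (log2 change 5.47, SE 0.13, adjusted p = 3.1e-05). H2-Ab1, a beta chain of the class II molecule, had 55.2, 36.01 and 32.5 scaled TPM at day 42, against 1.03, 1.28 and 1.72 at day 14 (log2 change 4.14, SE 0.22, adjusted p = 0.0004; chr17:34257689-34269419). H2-Eb1, another beta chain, had 32.4, 26.5 and 24.04 scaled TPM at day 42, against 0.657, 1.16 and 1.005 at day 14 (log2 change 3.88, SE 0.15, adjusted p = 0.00011). The spread within an age was small beside the gap between ages in all of them, and all 7 were called with each library left out. The remaining members were Ciita, the class II transactivator, and the peptide-loading chains H2-DMa and H2-DMb1, while H2-DMb2 did not reach the filter. The alpha chain H2-Aa had 11.2, 7.78 and 7.58 scaled TPM at day 42, against 0.242, 0 and 0.200 at day 14 (log2 change 3.09, SE 0.17, adjusted p = 0.0004).

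Professional antigen-presenting cells also express these genes. The 12 B and plasma cell markers summed to 5.48, 0.601 and 2.22 at day 42, against 0.718, 0.528 and 1.0 at day 14; Igkc, an immunoglobulin light chain, had 3.33, 0 and 0.97 scaled TPM at day 42 and was at 0 in every day 14 library. Over all 6 libraries the B cell gene Ms4a1 reached 0.0834 scaled TPM and Ptprc 0.513. Among macrophage genes Cd68 reached 2.37, Lyz2 0.853 and C1qa 0.12, and C1qb was at 0. The 15 myeloid markers summed to 8.58, 7.82 and 6.43 at day 42, against 7.08, 9.80 and 4.0 at day 14. The 17 T cell and intraepithelial lymphocyte markers summed to 49.9, 1.87 and 4.35 at day 42, against 4.53, 5.23 and 2.78 at day 14. Day 42 replicate 1 was the library highest in T cell markers (Gzma 21, Ccl5 11.6), and the class II sum was 227, 195 and 168 at day 42, against 4.04, 4.86 and 4.83 at day 14. The part of these cell types in the class II rise was not tested. Among other cell types' markers, Itgam (1.91 to 2.88 scaled TPM at day 42 and 0.228 to 0.393 at day 14), Vim (2.35 to 8.16 scaled TPM at day 42 and 0.502 to 0.903 at day 14), Cd14 and Prox1 rose, and Csf1r, S100b and Ctrb1 fell. The rest of those lists were below the filter or not called.

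Class I genes rose less: 5 of 14 did, Psmb8, Psmb9 and Psmb10 of the immunoproteasome, the peptide transporter Tap1 and H2-T22, each by less than 1 on the log2 scale (list median 0.59). That count was 2 without day 42 replicate 2 or day 14 replicate 1 or 2, 3 without day 42 replicate 3 or day 14 replicate 3, 3 without both libraries that stood apart and 2 with TPM as deposited. Of 19 interferon-stimulated genes (median 0.01), Ifitm3, a restriction factor of viral entry, rose (log2 change 1.85, adjusted p = 0.0069), and Ifit1, which binds viral RNA, fell (log2 change -2.57, adjusted p = 0.027). Among all tested genes the shares were 6.26% higher and 6.00% lower, so these counts are near those of any genes. The call of Ifit1 was lost without day 42 replicate 2 or 3 or day 14 replicate 1 or 2 (adjusted p = 0.074 to 0.099). None of 6 butyrophilin-like genes was called (median -0.35), and the number lower was 1 without day 42 replicate 1 and 4 without both libraries that stood apart. The number of interferon-stimulated genes lower was 0 without day 42 replicate 2 or 3 or day 14 replicate 1 or 2, 2 without day 14 replicate 3, 6 without both libraries that stood apart and 2 with TPM as deposited, and that of class I genes lower was 1 without day 42 replicate 1 and 3 without both libraries that stood apart.

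Class II promoters are known to carry an X box and a Y box, and 3 of the genes that rose are printed to show them. TGATTGG, the Y box core that contains the reversed CCAAT bound by NF-Y, and AACNGATG, part of the X box, were searched on both strands, with letters chosen after these windows were seen. A match is a description only. TGATTGG occurred in 3 of the 4 class II genes that rose and have a RefSeq window (H2-Eb1, H2-DMb1 and H2-Aa) and in 9% of all 27025 genes. AACNGATG occurred in 2 of these 4 (H2-Eb1 and H2-DMb1) and in 2.67% of all genes. The motifs do not overlap in these windows. In H2-Eb1 the X box part begins at -89 and the Y box at -61, in H2-DMb1 at -92 and -63, and in H2-Aa the Y box begins at -50. Capitals mark the matches, and for each gene the first window that held TGATTGG was taken. The windows (GRCm38.p6) are chr17:34305617-34305916, plus strand, chr17:34152941-34153240, plus strand, and chr17:34287774-34288073, minus strand.
H2-Eb1: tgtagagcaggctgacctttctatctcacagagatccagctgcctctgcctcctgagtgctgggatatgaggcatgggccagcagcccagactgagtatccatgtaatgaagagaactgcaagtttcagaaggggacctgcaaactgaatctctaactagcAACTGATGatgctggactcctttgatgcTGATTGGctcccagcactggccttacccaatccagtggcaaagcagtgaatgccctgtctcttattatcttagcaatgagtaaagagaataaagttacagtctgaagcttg
H2-DMb1: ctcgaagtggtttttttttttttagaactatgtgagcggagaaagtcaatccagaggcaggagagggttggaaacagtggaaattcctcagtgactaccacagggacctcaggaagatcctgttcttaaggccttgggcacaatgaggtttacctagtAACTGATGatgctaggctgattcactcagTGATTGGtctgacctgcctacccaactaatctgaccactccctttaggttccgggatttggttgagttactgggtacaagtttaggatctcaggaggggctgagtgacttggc
H2-Aa: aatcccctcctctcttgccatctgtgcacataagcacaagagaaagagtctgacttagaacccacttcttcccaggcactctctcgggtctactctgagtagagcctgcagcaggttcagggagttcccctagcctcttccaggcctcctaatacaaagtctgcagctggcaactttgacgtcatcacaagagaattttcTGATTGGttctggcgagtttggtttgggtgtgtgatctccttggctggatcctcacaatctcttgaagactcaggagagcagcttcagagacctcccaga

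Genes of sialic acid and fucose changed in both directions. Npl, which cleaves sialic acid, had 1.79, 0.0898 and 0.491 scaled TPM at day 42, against 43.9, 74.2 and 19.6 at day 14 (log2 change -4.63, SE 0.53, adjusted p = 0.0045). The sialyltransferase St3gal1 had 1.72, 1.48 and 1.98 scaled TPM at day 42, against 31.9, 33.4 and 21.3 at day 14 (log2 change -3.43, adjusted p = 0.0004), and its relative St3gal3 had 1.98, 2.77 and 2.98 scaled TPM at day 42, against 16.2, 19.9 and 13.8 at day 14 (log2 change -2.30, adjusted p = 0.0011). These 3 falls were called with each library left out. Fut8, a core fucosyltransferase, had 8.86, 9.37 and 10.2 scaled TPM at day 42, against 2.40, 2.09 and 2.73 at day 14 (log2 change 1.62, SE 0.10, adjusted p = 0.00073). Gmds, a step of GDP-fucose synthesis, had 35.97, 40.8 and 39.7 scaled TPM at day 42, against 13.6, 11.3 and 12.99 at day 14 (log2 change 1.55, SE 0.11, adjusted p = 0.001). Both rises held with each library left out. Gne and Nans, which make sialic acid, were also among the rises. In total 9 of 17 members rose and 3 fell (median 0.62), and the count of rises was 5 without day 42 replicate 2, 3 without day 42 replicate 3 or day 14 replicate 1, 4 without day 14 replicate 2 and 2 with TPM as deposited.

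**Figure D3:**
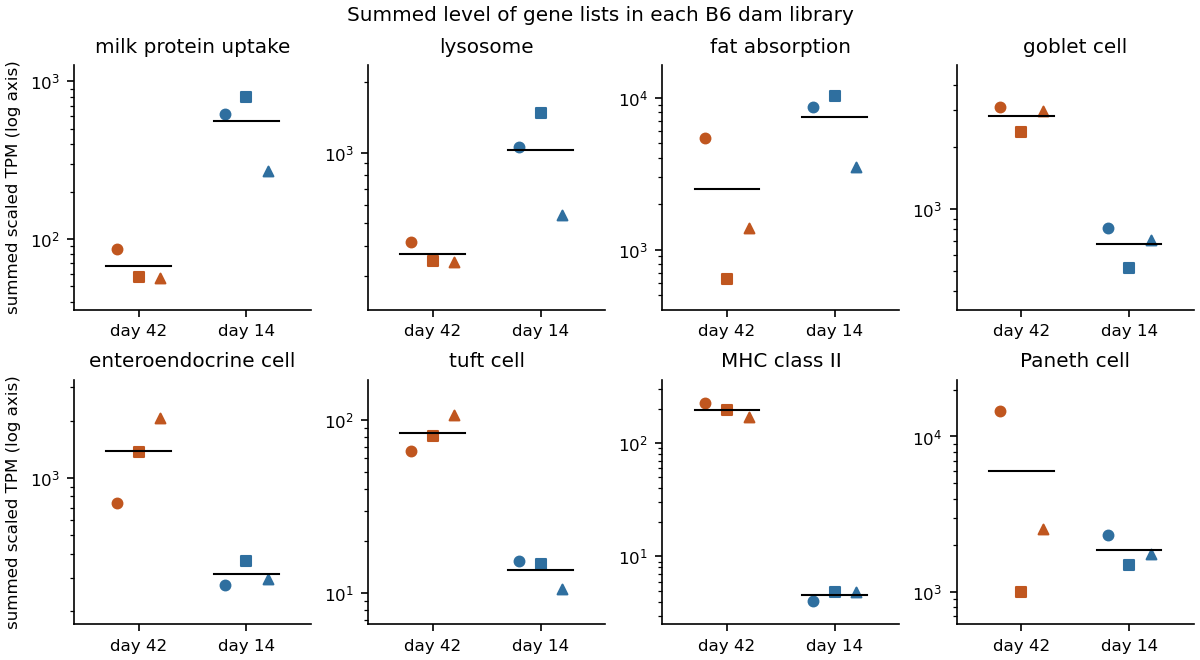
Summed scaled TPM (log axis) of 8 gene lists in each B6 dam library, day 42 left of day 14; circle, square and triangle are replicates 1, 2 and 3 of an age and the line is their mean. The ages do not overlap for milk uptake, lysosomal, goblet, enteroendocrine, tuft and class II genes, and overlap for fat absorption and Paneth genes, in which day 42 replicate 1 stands high.

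Markers of the goblet, enteroendocrine and tuft lineages rose. Of 20 goblet cell genes 17 were higher at day 42 and none was lower (median 1.44). Zg16, a lectin of mucus that binds Gram-positive bacteria, had 477, 162 and 239 scaled TPM at day 42, against 16.4, 7.46 and 17.98 at day 14 (log2 change 4.24, SE 0.47, adjusted p = 0.0039). Muc2, the gel-forming mucin, had 344, 278 and 296 scaled TPM at day 42, against 62.5, 42.2 and 57.8 at day 14 (log2 change 2.49, SE 0.18, adjusted p = 0.001; chr7:141690340-141754693). Agr2, a disulfide isomerase needed for mucin folding, had 194, 272 and 345 scaled TPM at day 42, against 43.8, 30.6 and 35.6 at day 14 (log2 change 2.83, SE 0.24, adjusted p = 0.0018). The 3 genes were separated by age without overlap, as was every called gene. Clca1, a secreted metalloprotease of mucus, had 229, 112 and 136 scaled TPM at day 42, against 38.99, 21.9 and 36.7 at day 14 (log2 change 2.23, SE 0.33, adjusted p = 0.0093). The regulators Spdef and Atoh1 were among the 17. Between 14 and 18 members were called higher with single libraries left out, and 15 with TPM as deposited.

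Enteroendocrine cell genes rose in 17 of 29 cases with none lower (median 1.40). Gcg, the gene of glucagon-like peptides, had 27.8, 84.3 and 116 scaled TPM at day 42, against 5.55, 6.27 and 6.75 at day 14 (log2 change 3.20, SE 0.49, adjusted p = 0.011). Gip, the glucose-dependent insulinotropic peptide, had 106, 341 and 602 scaled TPM at day 42, against 48.5, 37.99 and 37.6 at day 14 (log2 change 2.74, adjusted p = 0.031). Ghrl, ghrelin, had 17.7, 51.3 and 79.1 scaled TPM at day 42, against 3.06, 10.1 and 3.77 at day 14 (log2 change 2.83, adjusted p = 0.031). In these genes day 42 replicate 1 was the lowest of its age. The granule protein Scg2, with 4.20, 8.14 and 13.3 scaled TPM at day 42, against 0.129, 0.514 and 0.896 at day 14 (log2 change 2.57, SE 0.38, adjusted p = 0.0096), kept its call with each library left out. Gcg lost it without day 14 replicate 1 (adjusted p = 0.052), Gip without day 42 replicate 2 or 3 or day 14 replicate 1, 2 or 3 (adjusted p = 0.065 to 0.096) and Ghrl without day 42 replicate 2 or 3 or day 14 replicate 1 or 3 (adjusted p = 0.08 to 0.11). The number of members higher was 27 without day 42 replicate 1, 5 without day 42 replicate 2 or 3, 3 without day 14 replicate 1, 7 without day 14 replicate 2, 6 without day 14 replicate 3 and 27 without both libraries that stood apart.

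Tuft cell genes rose in 12 of 15 tested cases with none lower (median 1.93). Trpm5, the cation channel of tuft cell chemosensing, had 4.95, 7.41 and 9.57 scaled TPM at day 42, against 0.557, 0.556 and 0.382 at day 14 (log2 change 2.44, SE 0.21, adjusted p = 0.0019). Avil, an actin regulator, had 7.403, 11.1 and 12.9 scaled TPM at day 42, against 1.11, 0.927 and 0.774 at day 14 (log2 change 2.54, SE 0.19, adjusted p = 0.0013). No day 14 library reached any day 42 library in these genes, as in every called gene that rose. Sh2d6, an adaptor protein, had 6.22, 7.41 and 9.29 scaled TPM at day 42, against 0.410, 0.558 and 0.505 at day 14 (log2 change 2.52, adjusted p = 0.00043). The master regulator Pou2f3 and Dclk1 were among the 12. With single libraries left out 11 to 13 were called.

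Paneth cell genes did not rise as a group. Only Mmp7, the protease that activates defensins, was called among 20, with 55.5, 29.4 and 35.7 scaled TPM at day 42, against 8.74, 5.52 and 6.80 at day 14 (log2 change 2.33, SE 0.26, adjusted p = 0.0039), and the list median was 0.52. The summed level was 14500, 1000 and 2540 at day 42, against 2340, 1490 and 1770 at day 14, so that day 42 replicate 1 lay far above its partners and replicate 2 below all day 14 libraries. Without day 42 replicate 1, 2 members rose and 2 fell, and 4 rose with TPM as deposited. Without both libraries that stood apart 3 fell. Defensin paralogs share reads, so single members are uncertain.

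Of 21 stem cell genes 1 rose and 1 fell (median -0.12), where 6.26% of all tested genes rose and 6.00% fell. Prom1, a marker of stem and transit cells, had 18.1 to 25.6 scaled TPM at day 42 and 9.34 to 14.02 at day 14 (log2 change 0.89, adjusted p = 0.027), and its call was lost without day 42 replicate 2 or 3 or day 14 replicate 1 or 2 (adjusted p = 0.078 to 0.1). Rnf43, a ubiquitin ligase of Wnt receptors, had 9.03, 11.3 and 9.84 scaled TPM at day 42, against 19.3, 18.1 and 24.41 at day 14 (log2 change -0.96, SE 0.14, adjusted p = 0.0097). The number of stem cell genes higher was 2 without day 42 replicate 1, 0 without day 42 replicate 2 or 3 or day 14 replicate 1 or 2, 5 without both libraries that stood apart and 0 with TPM as deposited. Of 32 cell cycle genes 5 fell and none rose (median -0.48). Top2a, a topoisomerase of dividing cells, had 20.6 to 21.2 scaled TPM at day 42 and 27.5 to 35.7 at day 14 (log2 change -0.58, adjusted p = 0.026), and the mitotic kinase Cdk1 had 3.39 to 4.14 scaled TPM at day 42 and 5.34 to 6.29 at day 14 (log2 change -0.52, adjusted p = 0.023). Ccnd2 (-0.59) and Ube2c (-0.57) changed by a similar size. None of these 4 calls held with each library left out, and the count was 3 without day 42 replicate 1, 1 without day 42 replicate 2 or day 14 replicate 3, 0 without day 42 replicate 3 or day 14 replicate 1 and 3 with TPM as deposited.

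Cholesterol synthesis genes rose, 13 of 23 with none lower and a median of 0.54. Msmo1, a sterol oxidase, had 6.51, 4.62 and 4.89 scaled TPM at day 42, against 2.20, 1.67 and 2.09 at day 14 (log2 change 1.08, SE 0.14, adjusted p = 0.0066). Fdft1, squalene synthase, had 11.4, 9.39 and 11.4 scaled TPM at day 42, against 5.61, 4.43 and 5.17 at day 14 (log2 change 0.95, SE 0.12, adjusted p = 0.006). The ages did not overlap, as in every called gene. Both calls held with each library left out, and the list's count was 5 with TPM as deposited. Of 42 nuclear genes of the respiratory chain 3 rose (Ndufa1, Cycs and Cox5a), against 6.26% of all tested genes, and the list median was 0.29. The count was 0 without day 42 replicate 3 or day 14 replicate 1, 2 or 3 and 0 with TPM as deposited. None of 13 mitochondrially encoded genes was called (median -0.02). Of 23 genes of the unfolded protein response 6 rose (median 0.34), among them Ern2, the stress sensor of mucus-secreting cells, with 8.63, 12.9 and 14.8 scaled TPM at day 42, against 4.77, 4.06 and 5.03 at day 14 (log2 change 1.20, adjusted p = 0.013), and the count was 3 without day 42 replicate 2 or 3 or day 14 replicate 2, 2 without day 14 replicate 1 and 2 with TPM as deposited.

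Of 14 circadian clock genes 6 fell and 2 rose (median -0.21). The repressors Per1, Per2, Cry1, Cry2 and Bhlhe40 and the activator Tef fell, and the activators Arntl and Clock rose. The repressors Per3, Nr1d1, Nr1d2 and Nfil3 and the activator Npas2 were not called. Per2, a repressor, had 1.89, 1.499 and 1.75 scaled TPM at day 42, against 10.2, 11.5 and 8.27 at day 14 (log2 change -2.01, SE 0.13, adjusted p = 0.00079). Cry1, its partner, had 1.94, 1.83 and 1.61 scaled TPM at day 42, against 4.598, 5.27 and 4.33 at day 14 (log2 change -1.03, SE 0.10, adjusted p = 0.0026). Arntl, the activator BMAL1, had 4.44, 4.35 and 4.23 scaled TPM at day 42, against 2.15, 1.74 and 2.16 at day 14 (log2 change 0.83, SE 0.09, adjusted p = 0.0041). All 3 held with each library left out. The count of falls was 3 without day 42 replicate 3 or day 14 replicate 2 and 2 without day 14 replicate 1. Clock itself (log2 change 0.41, adjusted p just under 0.05) lost its call without day 42 replicate 1, 2 or 3 or day 14 replicate 1 or 3 (adjusted p = 0.086 to 0.17). The time of day of collection is not given in the labels. Of 12 heat shock genes (median 0.10) 3 rose: the near-identical Hspa1a (2.08) and Hspa1b (2.80), whose reads are hard to tell apart, and the co-chaperone Bag3 (1.05), whose call was lost without day 42 replicate 3 or day 14 replicate 1 (adjusted p = 0.054 to 0.063). Of 15 immediate early genes (median -0.35) 4 fell: Fosb (-1.31), Jun (-1.25), Cyr61 (-1.21) and Dusp1 (-0.63). That count was 2 without day 42 replicate 2 and 1 without day 42 replicate 3 or day 14 replicate 1. Dusp1 here and Per1 among the clock genes were also counted above as glucocorticoid targets, so these lists share members.

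Of 16 tight junction genes 2 rose and 2 fell (median 0.12). Cldn2, a leaky cation-pore claudin, had 19.1, 22.9 and 21.9 scaled TPM at day 42, against 45.3, 45.2 and 42.6 at day 14 (log2 change -1.03, SE 0.10, adjusted p = 0.003). Cldn3, a sealing claudin, had 138, 114 and 103 scaled TPM at day 42, against 59.1, 43.6 and 58.7 at day 14 (log2 change 1.13, SE 0.17, adjusted p = 0.011). The others called were Cldn15, a sodium pore claudin, which was higher (0.99), and Cldn8, which was lower (-1.16). The call of Cldn15 was lost without day 14 replicate 1 or 2 (adjusted p = 0.053 to 0.063) and that of Cldn8 without day 14 replicate 1 or 2 (adjusted p = 0.059 to 0.074). Of 20 microvillus genes (median -0.06) the keratin Krt20, a marker of mature villus cells, rose, with 364, 112 and 185 scaled TPM at day 42, against 29.1, 20.9 and 20.4 at day 14 (log2 change 3.03, SE 0.41, adjusted p = 0.0074). Over all tested genes 6.26% rose and 6.00% fell. No microvillus gene fell, and the number lower was 8 without both libraries that stood apart.

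The same contrast in mice of the IgA-null dam shares no library with the one above. Of 12594 genes tested with both dams, 1901 rose (15.1%) and 2352 fell (18.7%) with the IgA-null dam. Of the 1553 genes called with the B6 dam in this set, 1145 were called in the same direction, 73.7% of the B6 dam calls and 26.9% of the IgA-null dam calls, and 4 in the opposite direction (Fkbp2, Slc39a7, Trim26 and Vaultrc5, named after their values were seen). Changes had the same sign in 95.8% of genes called with the B6 dam and in 72.6% of all genes, and the log2 changes had a Pearson r of 0.695 across genes, which are not independent replicates. With the IgA-null dam 7 of 7 class II genes and 11 of 15 tuft cell genes rose, and 11 of 14 fetal and suckling regulators fell. Of 39 lysosomal genes 8 rose and 11 fell with that dam (median -0.05), and of 20 Paneth cell genes none rose and 10 fell (median -1.02). The log2 change of Fcgrt was -4.76 in mice of the B6 dam, against -3.74 in those of the IgA-null dam (adjusted p of the difference = 0.41).

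**Figure D4:**
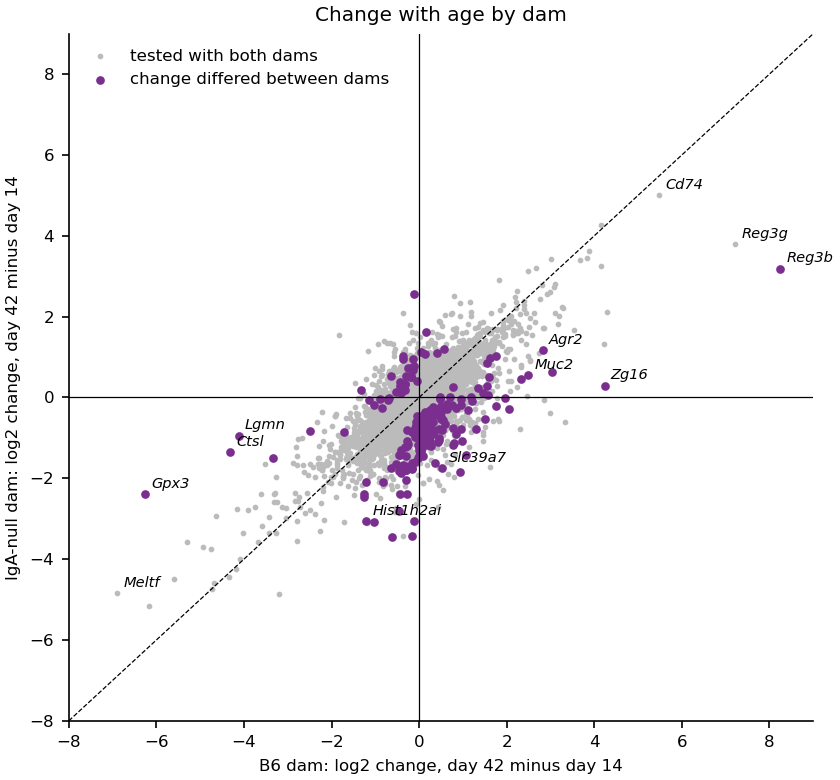
Change of each gene between the ages, log2 day 42 minus day 14, with the B6 dam (horizontal axis) and the IgA-null dam (vertical axis) for the 12594 genes tested with both; the dashed line marks equal change. Purple genes are those whose change differed between the dams; Reg3b, Zg16 and Muc2 rose more, and Gpx3, Ctsl and Lgmn fell more, with the B6 dam.

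The change with age differed between the dams in 219 of 14488 genes (1.51%, limma, adjusted p under 0.05 for the difference). The B6 dam's change was more positive in 176 of them and more negative in 43, against 182 and 144 without B6 dam day 14 replicate 3. Leaving out other libraries, the number more negative was 58 where B6 dam day 42 replicate 1 was missing, 37 where it was B6 dam day 14 replicate 2, and 4 to 25 in the remaining fits. Of 20 goblet cell genes 12 differed, in each case with the more positive change in mice of the B6 dam. With the IgA-null dam 4 of the 20 rose, 2 fell and the median was 0.08. The values below are scaled over the 12 libraries of both dams and so differ slightly from those above. Muc2 had 374, 301 and 320 scaled TPM at day 42, against 67.7, 45.8 and 62.4 at day 14 with the B6 dam. In mice of the IgA-null dam it had 306, 302 and 290 scaled TPM at day 42, against 261, 184 and 181 at day 14 (difference 1.95, SE 0.24, adjusted p = 0.0056). Zg16 had 518, 176 and 258 scaled TPM at day 42, against 17.8, 8.10 and 19.4 at day 14 in B6 dam mice, and in mice of the IgA-null dam 146, 226 and 155 scaled TPM at day 42, against 255, 108 and 101 at day 14 (difference 3.96, SE 0.66, adjusted p = 0.021). The ranges of the dams overlapped at day 42 for both genes, and at day 14 the B6 dam libraries were the lower ones. Agr2 also differed (difference 1.66, SE 0.32, adjusted p = 0.034). Its B6 dam libraries were the lower ones at day 14, and its day 42 mean was 293 scaled TPM for B6 dam mice, against 358 for mice of the IgA-null dam.

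Reg3b had 1680, 839 and 1120 scaled TPM at day 42, against 2.83, 3.61 and 1.95 at day 14 with the B6 dam. In mice of the IgA-null dam it had 178, 1040 and 607 scaled TPM at day 42, against 89.8, 46.2 and 34.9 at day 14 (difference 5.11, SE 0.80, adjusted p = 0.017). Reg3g had 428, 262 and 295 scaled TPM at day 42, against 1.49, 0.831 and 0.991 at day 14 with the B6 dam. In mice of the IgA-null dam it had 74.6, 299 and 176 scaled TPM at day 42, against 33.9, 7.09 and 4.53 at day 14 and the difference did not pass (difference 3.49, SE 0.89, adjusted p = 0.087). Of the falls, Gpx3 had 2.33, 2.70 and 4.17 scaled TPM at day 42, against 390, 624 and 122 at day 14 with the B6 dam. In mice of the IgA-null dam it had 3.88, 5.52 and 3.04 scaled TPM at day 42, against 22.8, 21.1 and 33.6 at day 14 (difference -3.90, SE 0.68, adjusted p = 0.026). At day 14 the Gpx3 level was thus far higher in B6 dam mice. Ctsl had 1.41, 1.28 and 1.58 scaled TPM at day 42, against 62.4, 98.1 and 18.8 at day 14 in B6 dam mice, and in mice of the IgA-null dam 1.53, 1.53 and 1.40 scaled TPM at day 42, against 4.54, 4.64 and 6.90 at day 14 (difference -3.03, SE 0.62, adjusted p = 0.044). Lgmn also differed (difference -3.19, SE 0.66, adjusted p = 0.045). In these 3 genes the B6 dam libraries were the higher ones at day 14, and the day 42 levels were within a few scaled TPM of each other. Ctsl, Lgmn and Gaa were the 3 of 41 lysosomal genes that differed. No class II, tuft, ketogenic, fetal or cholesterol gene did, and 1 of 29 enteroendocrine genes did (Chga).

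The differences of Muc2 and Reg3b passed with TPM as deposited, pseudocounts of 0.1 and 5, and each of the 12 libraries left out (1.78 to 2.30 for Muc2 and 4.15 to 5.67 for Reg3b). That of Zg16 was lost in 3 of these fits, those lacking B6 dam day 42 replicate 3 or 1 of IgA-null dam day 42 replicates 1 and 3 (adjusted p up to 0.055). Those of Ctsl and Lgmn were lost in 13 of these 15 fits. The number of genes that differed was 346 without B6 dam day 42 replicate 1, 95 without its replicate 2, 72 without its replicate 3 and 71 without B6 dam day 14 replicate 1. Without IgA-null dam libraries it was 85, 65 and 94 for day 42 replicates 1, 2 and 3, and 108, 117 and 92 for day 14 replicates 1, 2 and 3. Goblet genes among them numbered 4 without B6 dam day 42 replicate 3 and 6 to 11 without any other single library, and 13 with TPM as deposited. As deposited, 224 of 227 differences were more positive with the B6 dam, and the median difference over all genes was 0.31, against 0.03 after scaling. In the IgA-null dam libraries the values that came back whole held 15515277 to 16959244 reads at day 42 and 8477226 to 11337164 at day 14. The date-like strings of these libraries also differ between the ages. Both dams carry the same such string at day 42 and different ones at day 14, where the levels of Muc2, Zg16, Reg3b, Gpx3 and Ctsl lay apart, so dam and string cannot be told apart at day 14. The descriptions also begin with another letter for each dam, M for the B6 dam and F for the IgA-null dam, whose meaning the labels do not give, so dam and that letter cannot be told apart. Scaled over the 6 B6 dam libraries, the Y-linked gene Ddx3y ran at 4.90 to 6.39 scaled TPM and Xist at 0.0327 to 0.0943. Values of these genes with the IgA-null dam are not given here, and the part of sex in the differences was not tested.

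**Figure D5:**
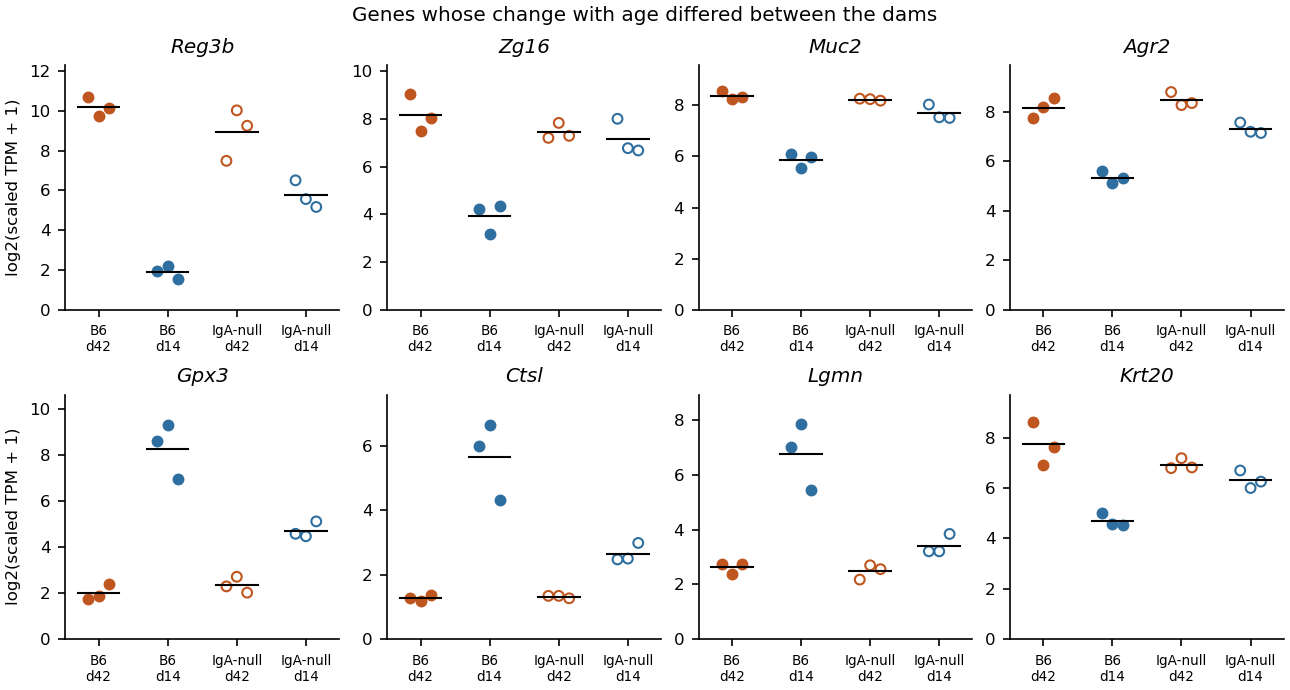
Level, as log2(scaled TPM + 1), of 8 genes whose change with age differed between the dams; filled points are B6 dam and open points IgA-null dam libraries, day 42 left of day 14 within each dam, and the line is the mean. The day 14 groups are apart in every panel, as for Muc2, whose 3 B6 dam libraries lie at 45.8 to 67.7 scaled TPM, below the IgA-null dam libraries at 181 to 261.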

How the data were processed

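RNA of sorted EpCAM+ cells was amplified with the SMART-seq v4 kit and made into Nextera XT libraries, per the labels' protocols. The authors deposited TPM values for 53278 gene symbols; per the submitters' processing notes, which give no role or version, Bowtie2, Subread, DESeq2 and the mm10 build were used. TPM times exon length (GENCODE M21) gave whole reads within 0.01 reads or a relative tolerance of 1e-04 for 93.5% to 93.9% of values above 0 in the 6 B6 dam libraries, 95.1% to 95.8% under 100 reads; reads are PCR products without molecular identifiers.

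Genes with a scaled TPM of at least 1 in at least 2 of the 6 libraries were tested with limma 3.58.1 (R 4.3.3, intensity trend) on log2(scaled TPM + 1), without a block. The difference between dams was an interaction over 12 libraries. Python 3.11.15 with numpy 2.4.6, pandas 2.3.3 and matplotlib was used for reads, promoters and figures. The test was also run on simulated data with the same dispersion for every gene and no library apart, unlike these libraries. Members, tests and the 50 gene lists were chosen with earlier results of these data known, and the lists come from general knowledge. Named genes were the 12 largest rises and falls among called genes without overlap and with a mean of at least 10 scaled TPM, predicted genes left out; up to 4 called members per list and direction, or else the member of highest mean; check genes; the 5 smallest p of the difference; and the 5 highest genes per age; some genes that this rule names are not reported here. The labels do not say that replicate numbers pair animals, so the main test did not pair samples by number. Alternatives changed scaling, pseudocount, filter, moderation, weights, samples and block; limma-voom on recovered reads (1660 genes called) and leaving out both libraries that stood apart were chosen after seeing the data.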

Additional observations from a re-analysis of the deposited data

Results flagged for a closer look

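The change between days 14 and 42 differed between the B6 dam and the IgA-null dam in 219 genes, by a test of the difference itself. Of these, 79 have predicted, pseudogene, ribosomal protein or small RNA names. The share of such names among all 14488 tested genes was not taken, so the count cannot show whether they are frequent here. Differences below are the log2 change with the B6 dam minus that with the IgA-null dam.

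The smallest p-values were those of the zinc transporter gene Slc39a7 (2.28), the histone gene Hist1h2ai (1.85), Gm23119 (2.84), Gm15710 (1.45) and Rps15a-ps5 (1.39). Slc39a7 had 3.16, 3.69 and 3.64 scaled TPM at day 42, against 1.95, 2.50 and 1.85 at day 14 in B6 dam mice, and in mice of the IgA-null dam 3.52, 3.47 and 3.22 scaled TPM at day 42, against 13.5, 12.9 and 14.8 at day 14, so that the IgA-null dam libraries at day 14 were the high ones. Hist1h2ai had 12.9, 11.4 and 11.2 scaled TPM at day 42, against 29.8, 30.4 and 26.0 at day 14 in B6 dam mice, and in mice of the IgA-null dam 12.6, 11.2 and 13.5 scaled TPM at day 42, against 115, 110 and 106 at day 14, with the same libraries high. The small nuclear RNA Rn7sk, a brake on elongation, differed by 1.96.

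Reg3b (5.11), Zg16 (3.96), Krt20 (2.42), Muc2 (1.95), the Paneth cell protease Mmp7 (1.90), Agr2 (1.66), Ern2 (1.20), Gmds (0.71) and Fut8 (0.68) had more positive changes with the B6 dam. Gpx3 (-3.90), Lgmn (-3.19), Ctsl (-3.03) and the arginine synthesis gene Asl (-0.86) had more negative ones. Group means of Krt20 were 239 scaled TPM at day 42 and 25.4 at day 14 for the B6 dam. For the IgA-null dam they were 122 at day 42 and 80.4 at day 14. Of these 13 genes, Reg3b and Muc2 passed with each of the 12 libraries left out in turn. Whether depth plays a part in these differences was not tested, and at day 14 dam and the date-like string of the labels cannot be told apart.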

How the results depend on the processing

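No named gene that was called changed direction in any fit; of 155 such genes 91 were called with each B6 dam library left out, and 24 were lost with TPM as deposited. With single libraries left out, 586 to 1717 genes were called with the B6 dam (320 to 919 higher, 266 to 798 lower), 2888 to 3741 with the IgA-null dam, 494 to 1238 in the same direction with both dams, and 65 to 346 differed between the dams. With TPM as deposited 406 were higher with the B6 dam, and 7499 were called with the IgA-null dam. Without a filter 1012 were called of 32110 tested (525 higher, 487 lower). Library weights gave 4811 (2334 higher, 2477 lower). Leaving out both libraries that stood apart gave 2448 (1374 lower), and turned the change of Anpep, a peptidase gene that was not called, to -0.66 (0.39 with all 6 libraries). The cause was not tested. A replicate block gave 866 (438 higher, 428 lower), 628 shared with the IgA-null dam and 99 that differed. Same-numbered libraries correlated in their deviations at 0.189, -0.179 and 0.126, against -0.312 to 0.31 for libraries of unlike number. With 3 libraries per age these values cannot show whether the numbers pair animals. Depth limits low genes: 3 reads per library was taken as the floor for genes at 0.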

Other observations

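Several genes were listed at 0 in all 3 B6 dam libraries at day 42 and were expressed at day 14; those named here were chosen after their values were seen. St3gal5, which makes the ganglioside GM3, had 0 in each day 42 library, against 7.13, 11.2 and 2.13 scaled TPM at day 14, and was at least 112-fold lower at day 42 against a floor of 3 reads per library. Smcp, known as a sperm mitochondrial protein, had 0 in each day 42 library, against 10.8, 18.5 and 6.86 at day 14, and was at least 69.1-fold lower. C8b, a complement component, had 0 in each day 42 library, against 2.34, 3.08 and 1.75 at day 14, and was at least 38.2-fold lower. Ctrb1, a pancreatic chymotrypsinogen, was at least 38.7-fold lower, with 0, 0 and 0 scaled TPM at day 42, against 8.86, 10.1 and 2.07 at day 14, while Prss1, Prss2, Cpb1, Cela2a, Pnlip and Amy2b, other products of the pancreas, were at 0 in all 6 libraries.

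Among the genes of highest level at day 42, Lgals2, a galactose-binding lectin of enterocytes, had 979.6, 1092 and 1131 scaled TPM at day 42, against 383, 319 and 442 at day 14 (log2 change 1.49, SE 0.17, adjusted p = 0.0039). The defensin Defa24 had 8402, 556 and 1509 scaled TPM at day 42, against 1393, 889.95 and 1085 at day 14 and was not called, and Apoa1, an apolipoprotein, had 1599.9, 87.4 and 173 scaled TPM at day 42, against 2329, 2832 and 831 at day 14 (log2 change -2.60, adjusted p = 0.17).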
